A study of Rattus norvegicus with 6 samples.

Results

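The sites described here are intergenic CpG sites of the rat dorsal root ganglion (DRG) that lie within 20 kb of an annotated transcript start. They were taken from the authors' annotated table of CpG sites by 2 criteria: the table's promoter, exon, intron, CpG island and island shore flags were all 0, and the distance to the nearest annotated start was at most 20 kb on either side. This gave 3739 of the 32674 annotated nuclear sites. Of these, 2935 lay upstream of the start and 804 lay downstream of it, which for an intergenic site means past the far end of the gene. The sites were assigned to 2013 transcripts, and 1902 gene names could be given. Assigning a site to a gene means only that this gene has the nearest annotated start.

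Methylation was measured by reduced representation bisulfite sequencing (RRBS), in which DNA is cut with the enzyme MspI at CCGG, treated with bisulfite and sequenced, so that the percent of reads that kept a cytosine gives the methylation level. The first group, SNL (n = 3 libraries), came from ganglia 3 weeks after spinal nerve ligation, a model of neuropathic pain in which tight ligatures are placed on the L5 and L6 spinal nerves of the left side. The second group, Sham (n = 3 libraries), came from ganglia 3 weeks after a sham operation with no ligature, described as made on the side opposite to the ligation. All were from adult male Sprague-Dawley rats of 8 to 9 weeks, operated under isoflurane, and no transgene or drug distinguishes the groups. The labels do not say which ganglia were pooled, whether a library is 1 animal, or whether an SNL and a Sham library share an animal, so every p-value refers to variation among libraries and that variation may be technical. Coverage summed over CpG positions, where a read over several CpGs counts at each, was 29420922 to 34293779 in the SNL libraries and 27247702 to 32243538 in the Sham libraries, and median coverage of the described sites was 213 reads.

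Methylation of cytosine at CpG is copied at each cell division by maintenance methyltransferases and removed by dilution or by oxidation through TET enzymes. In mammals most CpG-rich promoters stay unmethylated in most tissues, most of the intergenic genome is methylated, and intermediate levels are common at enhancers and where cell types of a tissue differ. A ganglion holds sensory neurons, satellite glia, Schwann cells, vascular cells and immune cells, and after nerve ligation glia proliferate and macrophages enter it. In such whole tissue, a different mix of cells and a different methylation level within 1 kind of cell cannot be told apart.

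To show what lies at the other end of these distances, the 250 bases before the start of Rgs16, Wnk1 and Maf are printed from RefSeq (assembly GRCr8), each 5′ to 3′ on the strand of the gene, with the MspI recognition sites CCGG in capitals. Rgs16 (chr13:68437870-68438119, plus strand) and Wnk1 (chr4:154926148-154926397, minus strand) are shown because both a changed intergenic site and promoter sites of the same transcript were read. Maf (chr19:60621357-60621606, minus strand) is shown because 2 neighbouring intergenic sites upstream of it gained methylation.
Rgs16: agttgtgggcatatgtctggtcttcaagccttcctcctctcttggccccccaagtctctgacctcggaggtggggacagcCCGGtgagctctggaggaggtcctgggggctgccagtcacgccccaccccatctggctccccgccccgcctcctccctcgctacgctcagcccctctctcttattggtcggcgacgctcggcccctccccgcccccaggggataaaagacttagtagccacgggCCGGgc
Wnk1: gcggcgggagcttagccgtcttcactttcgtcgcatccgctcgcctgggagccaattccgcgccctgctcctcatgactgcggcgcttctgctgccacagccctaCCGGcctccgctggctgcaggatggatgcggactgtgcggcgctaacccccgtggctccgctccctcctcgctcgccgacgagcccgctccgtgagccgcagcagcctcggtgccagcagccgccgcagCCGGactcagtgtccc
Maf: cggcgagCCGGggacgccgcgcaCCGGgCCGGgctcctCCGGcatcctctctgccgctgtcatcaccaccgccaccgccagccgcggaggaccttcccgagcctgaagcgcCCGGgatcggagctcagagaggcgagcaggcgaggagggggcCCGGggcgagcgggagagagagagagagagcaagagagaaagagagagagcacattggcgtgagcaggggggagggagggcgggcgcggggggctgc
These windows hold 14, 29 and 27 CpG dinucleotides for Rgs16, Wnk1 and Maf, against a median of 5 over the 33469 RefSeq promoter windows of the same length. CCGG, which reads the same on both strands, occurs 2, 2 and 6 times in them, and 46.2% of all promoter windows hold at least 1. One changed site had a microRNA start as its nearest start, that of Mir146a. Both mature products of its hairpin are printed with the seed (bases 2 to 8), the stretch that pairs with target messages, in capitals.
rno-miR-146a-5p: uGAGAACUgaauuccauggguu
rno-miR-146a-3p: aCCUGUGAaguucaguucuuu
Site positions below are in the authors' assembly, rn4, and are not converted to that of the printed sequences.

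Some sites set single libraries apart whatever the operation. At 9 of the 3739 sites the libraries of 1 group spanned more than 30 percentage points. Of these 9, 0 passed the test of SNL against Sham, as did 0 of the 95 such sites among all annotated ones. The test divides by the spread within the groups, so so wide a span itself works against passing. A site 17.9 kb downstream of Aqp4, the water channel of astrocytes and satellite glia, read 0.4, 85.9 and 42.1% in SNL 1 to 3, against 48.1, 91.3 and 58.3% in Sham 1 to 3. A site 17.2 kb upstream of Ccr4, a chemokine receptor of T cells, read 67.1, 97.3 and 97.3% in SNL 1 to 3, against 97.4, 97.0 and 68.4% in Sham 1 to 3. Here 1 library of each group stood about 30 points below the other 2, and it did not carry the same number in both groups. A site 7.2 kb upstream of Hnrnpl, a splicing regulator, read 36.6, 37.9 and 81.4% in SNL 1 to 3, against 84.9, 37.6 and 41.9% in Sham 1 to 3.

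Across these 9 sites, SNL 2 and Sham 2 lay within 10 points of each other at 9, with a largest gap of 5.4 points. SNL 3 and Sham 1 also lay within 10 points at 9 of 9, with a largest gap of 8.2 points. SNL 1 and Sham 3 did so at 5, and each of the other pairs of an SNL and a Sham library at 1 to 4. Over all 95 annotated sites with so wide a span, SNL 2 and Sham 2 lay within 10 points at 88 and SNL 3 and Sham 1 at 91. SNL 2 and Sham 3 did so at 60. SNL 1 and Sham 3 did so at 33 and did not stand out, since the remaining pairs did so at 23 to 32. The labels do not say what the libraries of a close pair share, and whether it bears on the comparisons of SNL with Sham was not tested.

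**Figure D1:**
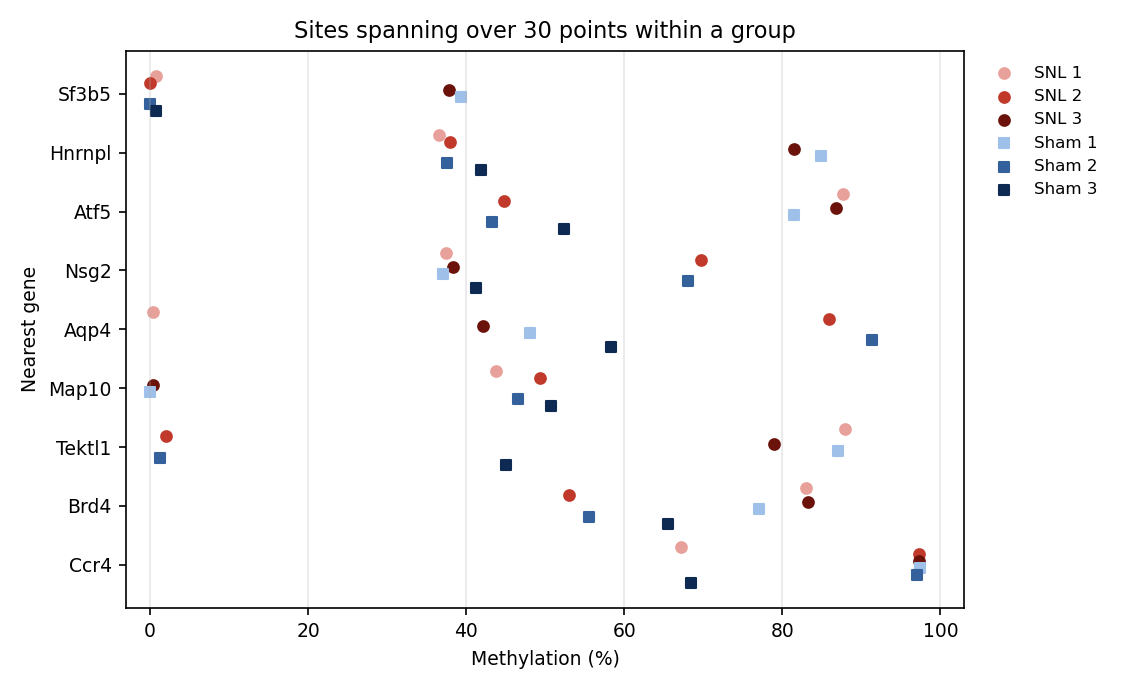
Methylation (%, horizontal axis) in each of the 6 libraries at the 9 intergenic sites where the libraries of 1 group span more than 30 points; circles are SNL 1 to 3, squares are Sham 1 to 3, and rows are named by the nearest gene. SNL 2 lies close to Sham 2, and SNL 3 close to Sham 1, in all 9 rows.

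The first question was whether these intergenic sites as a class were methylated differently after SNL. Mean methylation over the 3739 sites was 71.42, 70.26 and 69.82% in SNL 1 to 3, against 71.00, 71.76 and 71.75% in Sham 1 to 3. SNL 1 lay inside the range of the Sham libraries, whereas SNL 2 and SNL 3 lay below it. The group means were 70.50% ± 0.82 after SNL and 71.50% ± 0.43 after sham surgery (SD, n = 3 each), a difference of -1.00 points that did not exceed the spread between libraries (exact two-sided permutation p = 0.2; 3 libraries against 3 cannot give less than 0.1). Of the 3739 sites, 61.8% had a lower mean after SNL, beside 61.3% of all annotated sites.

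The upstream and the downstream sites were methylated to nearly the same level. Upstream sites averaged 70.58% ± 0.82 in SNL and 71.60% ± 0.45 in Sham, and downstream sites averaged 70.20% ± 0.84 in SNL and 71.12% ± 0.38 in Sham (SD, n = 3 each; exact permutation p = 0.2 on either side). The upstream mean exceeded the downstream mean in each of the 6 libraries, by 0.35 to 0.46 points in SNL and by 0.41 to 0.53 points in Sham. These per-library gaps averaged 0.39 ± 0.06 in SNL and 0.49 ± 0.07 in Sham, and their ranges overlapped (SD, n = 3 each; exact permutation p = 0.2). At the 49 transcripts with sites on both sides, the upstream sites were the more methylated at 24. The mean gap of upstream over downstream at these transcripts was 0.70 ± 0.59 points in SNL and -0.30 ± 0.68 points in Sham (SD, n = 3 each; exact permutation p = 0.2).

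Set against other intergenic DNA, the sites near starts were the less methylated. They stood 3.65 ± 0.05 points below the 6953 intergenic sites that lie over 20 kb and up to 100 kb from a start in SNL, and 3.70 ± 0.20 points below them in Sham. The size of that gap did not differ between SNL and Sham beyond the spread (exact permutation p = 0.7). Against all 28935 other annotated sites, which include promoters and CpG islands, they stood higher by 3.59 ± 0.04 points in SNL and by 3.68 ± 0.14 points in Sham (exact permutation p = 0.4).

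On the upstream side, methylation varied more with distance than between the groups. The 97 sites up to 2 kb from the start averaged 65.9% ± 0.5 in SNL and 67.2% ± 0.5 in Sham. The levels were 68.99% and 70.06% at 2 to 5 kb, 69.06% and 70.04% at 5 to 10 kb, and 71.75% and 72.60% at 10 to 15 kb in SNL and in Sham. At 15 to 20 kb they reached 73.80% ± 0.87 in SNL and 74.97% ± 0.34 in Sham (610 sites). In both groups methylation therefore stood higher with each class farther upstream, save for the 2 classes between 2 and 10 kb, which were level.

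Downstream of the start no such order was seen. The class at 10 to 15 kb was the lowest of the downstream classes, at 66.0% ± 1.0 in SNL and 66.9% ± 0.7 in Sham (226 sites), and the class at 15 to 20 kb stood at 75.1% ± 0.8 in SNL and 76.2% ± 0.5 in Sham (287 sites). The class up to 2 kb held 6 sites and is not read further. The difference between SNL and Sham was between -0.73 and -1.35 points in all 10 classes, with adjusted p of 0.25 to 0.40 over the classes (exact permutation test). In the class nearest to the start on the upstream side the 3 SNL libraries, at 66.4, 65.8 and 65.5%, all lay below the 3 Sham libraries, at 66.7, 67.3 and 67.7% (exact permutation p = 0.1, the smallest possible).

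**Figure D2:**
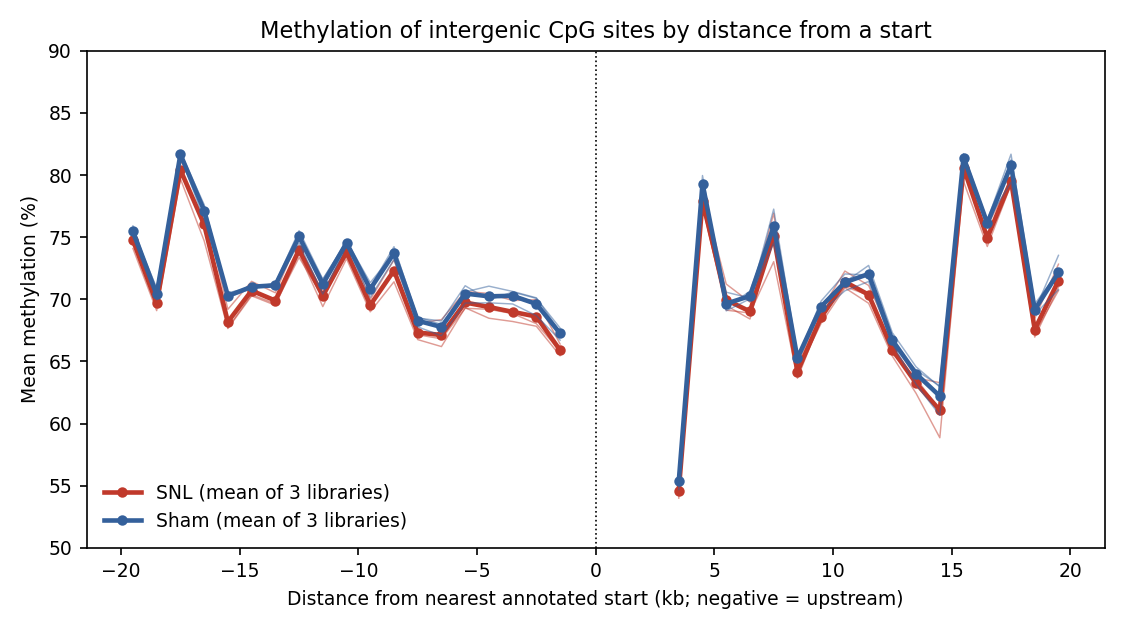
Mean methylation (%, vertical axis) of the intergenic sites in 1 kb steps of distance from the nearest annotated start (kb, horizontal axis; negative is upstream), with thick lines for the means of 3 SNL and 3 Sham libraries and thin lines for single libraries. The SNL and Sham lines run close together and go up and down with distance alike.

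Most of these sites were heavily methylated, and a minority were not. Over the 6 libraries, 2042 sites (54.6%) averaged over 80%, 1313 (35.1%) stood between 20 and 80%, and 384 (10.3%) stood under 20%. In the middle class the mean was 58.4% ± 1.3 in SNL and 60.0% ± 0.8 in Sham, and in the high class it was 90.02% ± 0.59 in SNL and 90.8% ± 0.3 in Sham (SD, n = 3 each; exact permutation p = 0.2 for both). In the low class it was 7.90% ± 0.36 in SNL and 7.97% ± 0.20 in Sham (exact permutation p = 0.8).

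Sites near genes of embryonic patterning were often sparsely methylated. Of the 68 sites whose nearest start belongs to a developmental transcription factor of the list used, 37 (54.4%) stood under 20%, whereas 10.3% of all 3739 sites did; the list was compiled with these data known, and no test was made. They belong to 17 genes, among them Hoxb3, Hoxc9 and Hoxc12, which give segments along the body axis their identity, Otx2, which patterns the head, and Cdx2, Hand2, Tbx3 and Zic1. The 7 sites near Hoxc12 averaged 8.23% in SNL and 8.18% in Sham, and they lay 8.4 to 18.5 kb from its start. The 3 sites near Sox2, a factor of neural progenitors and glia, averaged 3.63% in SNL and 4.89% in Sham. Low methylation this far from a start was not a property of every such gene, since the 3 sites near Nkx6-1 averaged 89.4% in SNL and 90.2% in Sham.

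The second question was which single sites changed. Each annotated site was tested with a logistic model of its methylated and unmethylated read counts, and a site was called at an adjusted p under 0.05. Of the 3739 sites, 54 (1.44%) were called, close to the 1.42% called among all annotated sites. By the authors' deposited q-value under 0.05, 159 were called, beside 4.54% of all annotated sites. With p adjusted over all 210270 nuclear sites read at least 20 times in each library, 80 were, beside 2.47% of all annotated sites. Of the 54, 48 were lower and 6 were higher after SNL, where 1.24% of all annotated sites were called lower and 0.181% higher. When each library's overall methylation level was taken into account with an offset, 45 sites were called (1.21% of all annotated sites), 29 lower and 16 higher, and 35 of the 54 kept their call, 29 of the lower and all 6 of the higher ones. Leaving out SNL 1, SNL 2 or SNL 3 gave 58, 24 or 30 calls, beside 1.6, 0.722 or 0.933% of all annotated sites. Leaving out Sham 1, Sham 2 or Sham 3 gave 33, 29 or 16 calls, beside 0.894, 0.768 or 0.395% of all annotated sites. With limma on logit values, or with an F test whose spread was not shared across sites, 0 sites were called (355 and 210 had an unadjusted p under 0.05).

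The 54 changed sites formed 42 separate stretches of DNA, when sites under 1 kb apart are joined, of which 38 lost and 4 gained methylation. In each of the 54 the 3 SNL libraries did not overlap the 3 Sham libraries, which held for 17.6% of all 3739 sites and for 17.8% of all annotated sites. The losses had a median of -11.3 points, the gains had a median of 11.3 points, and 33 of the 54 differed by at least 10 points. Sites of intermediate methylation supplied 37 of the 54 calls, which is 2.82% of that class, against 12 from the high class and 5 from the low class. Among all annotated sites 3.15% of the middle class was called, and that class supplied 68.5% of the calls, the same share as here (68.5%). All 6 gains lay upstream of a start, in 44 upstream calls, while the 10 downstream calls were all losses; the 10 became 2 when SNL 2 was left out, 5 when SNL 3 or Sham 2 was, and 1 when Sham 3 was. With library offsets the upstream calls were 33 (20 losses, 13 gains) and the downstream calls 12 (9 losses, 3 gains). A difference between the sides in the share that gained was not tested. The call held in each of the 6 fits that left out 1 library for 15 of the 54 sites: 12 losses, among them those near Rpl21, Lhfpl2, Cse1l, Pou1f1, Tenm3, Litaf, Hmga1 and Diaph3, and 3 gains, near Tfap2a, Maf and Ehbp1.

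**Figure D3:**
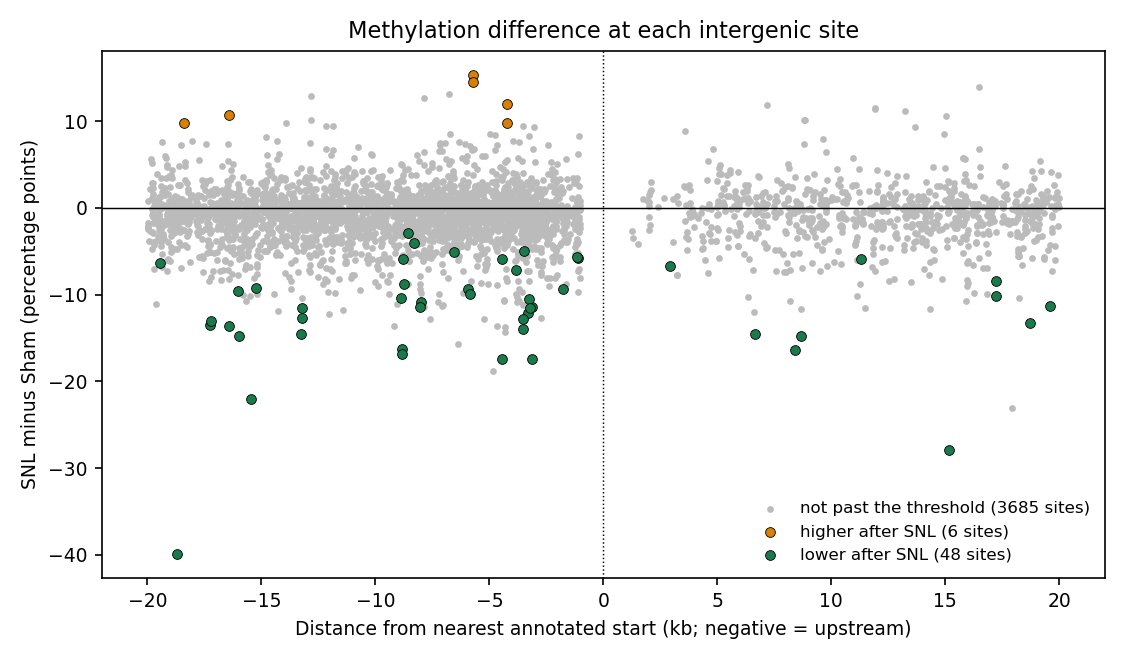
Difference in mean methylation (percentage points, SNL minus Sham, vertical axis) at each intergenic site against its distance from the nearest annotated start (kb, horizontal axis; negative is upstream); grey points did not pass the threshold, green points are the 48 losses and orange points the 6 gains. The called gains lie on the upstream side, and losses occur at most distances on both sides.

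The largest change was at a site of chromosome 12 (position 8738457), and its nearest start, 18.7 kb away, is that of the ribosomal protein gene Rpl21. Methylation there was 46.1, 38.0 and 34.9% in the SNL libraries, against 80.6, 78.2 and 79.8% in the Sham libraries, at 648 to 888 reads per library. The groups were separated by over 30 points, and the loss of 39.9 points (adjusted p = 3.85e-08, moderated logistic test) kept its call without any 1 of the 6 libraries. Neighbouring CpGs that no read of 50 bases can share with this site moved the same way at lower depth. At 135 bp, methylation was 42.9, 18.5 and 45% in SNL, against 57.1, 70 and 69.2% in Sham. At 175 bp it was 80, 61.5 and 60% in SNL, against 100, 95 and 88.9% in Sham. Neither neighbour passed the test by itself (p adjusted over all sites read at least 20 times = 0.15 and 0.09, as few as 20 reads), although the groups did not overlap at either.

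Lhfpl2, a member of a family of tetraspan membrane proteins, had a site 15.4 kb upstream (chromosome 2, position 24391938) at 52.1, 63.6 and 62.5% in SNL, against 82.4, 80 and 82.0% in Sham. Methylation thus fell by 22.04 points (adjusted p = 0.00548), on 100 to 146 reads, fewer than most of the named sites, and CpGs at 101 and 132 bp from it differed by -1.2 and -3.1 points. Cse1l, the exportin that returns importin alpha to the cytoplasm, had a site 4.4 kb upstream (chromosome 3, position 158057233) at 49.8, 35.1 and 37.6% in SNL, against 57.6, 61.3 and 55.8% in Sham (adjusted p = 0.00539). SNL 1 was the closest of the SNL libraries to the Sham range at Cse1l and the farthest from it at Lhfpl2.

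Upstream losses also came in clusters of adjacent CpGs. Tenm3, a teneurin, is a transmembrane adhesion protein that guides neuronal wiring, and 3 sites within 45 bp of each other, 8.8 to 8.9 kb upstream of its start, were all called (chromosome 16, positions 46639896 to 46639941). The last of them read 42.2, 42.9 and 41.6% in SNL, against 61.1, 57.0 and 59.1% in Sham (401 to 772 reads; adjusted p = 9.64e-05). The SNL libraries lay within 3 points of each other at each of the 3 sites, and losses were 10.3, 16.3 and 16.9 points in order of position. A pair of CpGs at 161 and 177 bp were lower by 15.5 and 11.9 points, and neither was called at as few as 22 reads.

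Hmga1, an architectural chromatin protein that binds AT-rich DNA, had 3 called sites within 43 bp, 13.2 to 13.3 kb upstream (chromosome 20, positions 5755788 to 5755831). The first read 62.7, 66.3 and 66.9% in SNL, against 79.9, 78.6 and 81.2% in Sham (adjusted p = 0.000385). The 3 sites fell by 14.6, 11.6 and 12.7 points, although the last of them had a level about 30 points under the others in both groups. Pou1f1, the pituitary factor that drives growth hormone and prolactin, had 2 called sites 16 bp apart and 3.1 kb upstream (chromosome 11, positions 2956255 and 2956271). The first read 71.9, 75.5 and 72.4% in SNL, against 87.3, 94.2 and 90.6% in Sham (adjusted p = 0.000806), and the second fell by 11.4 points.

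Litaf, an endosomal membrane protein that is altered in a form of the human nerve disease Charcot-Marie-Tooth, had 2 called sites 39 bp apart and 16.0 kb upstream in DNA of low methylation (chromosome 10, positions 4598139 and 4598178). The second read 11.8, 7.0 and 5.8% in SNL, against 24.3, 25.5 and 19.3% in Sham (adjusted p = 0.0047). The first of the pair was less stable, since its call was kept in 1 of the 6 fits that left out 1 library. Rgs16, a GTPase accelerator that shortens signalling through G proteins, had 2 called sites 6 bp apart and 3.5 kb upstream (chromosome 13, positions 68804327 and 68804333). The second read 36.8, 33.6 and 34.5% in SNL, against 48.6, 50.9 and 47.3% in Sham (adjusted p = 0.0216), and that call was kept in 1 of the 6 fits that left out 1 library.

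A further upstream cluster was near Gng13, a gamma subunit of G proteins known from taste cells and retina. It held 2 called sites 17.2 kb from the start, the first at 62.1, 63.1 and 63.1% in SNL and at 77.2, 75.2 and 76.4% in Sham (adjusted p = 0.0107; 0.0628 without Sham 3).

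The 5 calls in the class under 20% were all losses, among them those near Litaf, F2rl2 and Pif1, a DNA helicase. Further upstream losses, chosen for naming after their values were seen, lay near Map7, a microtubule-binding protein (-12.1 points), Hnrnpf, a splicing regulator (-11.5), Spag9, a scaffold of stress kinases (-10.8), and Mapk13, a stress kinase (-9.3). Smaller losses lay near Cldn1, a tight junction protein (-5.1 points), Adgrl4, an adhesion receptor of endothelium (-5.8), Slc14a1, a urea transporter (-6.4), Cyp7a1, the rate-limiting enzyme of bile acid synthesis (-5.7), the olfactory receptor gene Or10ak7 (-4.1) and Depdc1 (-2.9). A loss of 9.3 points was assigned to the transcript NM_001107392, which the gene table used does not name. Apart from Litaf, each of these kept its call in at most 3 of the 6 fits that left out 1 library.

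**Figure D4:**
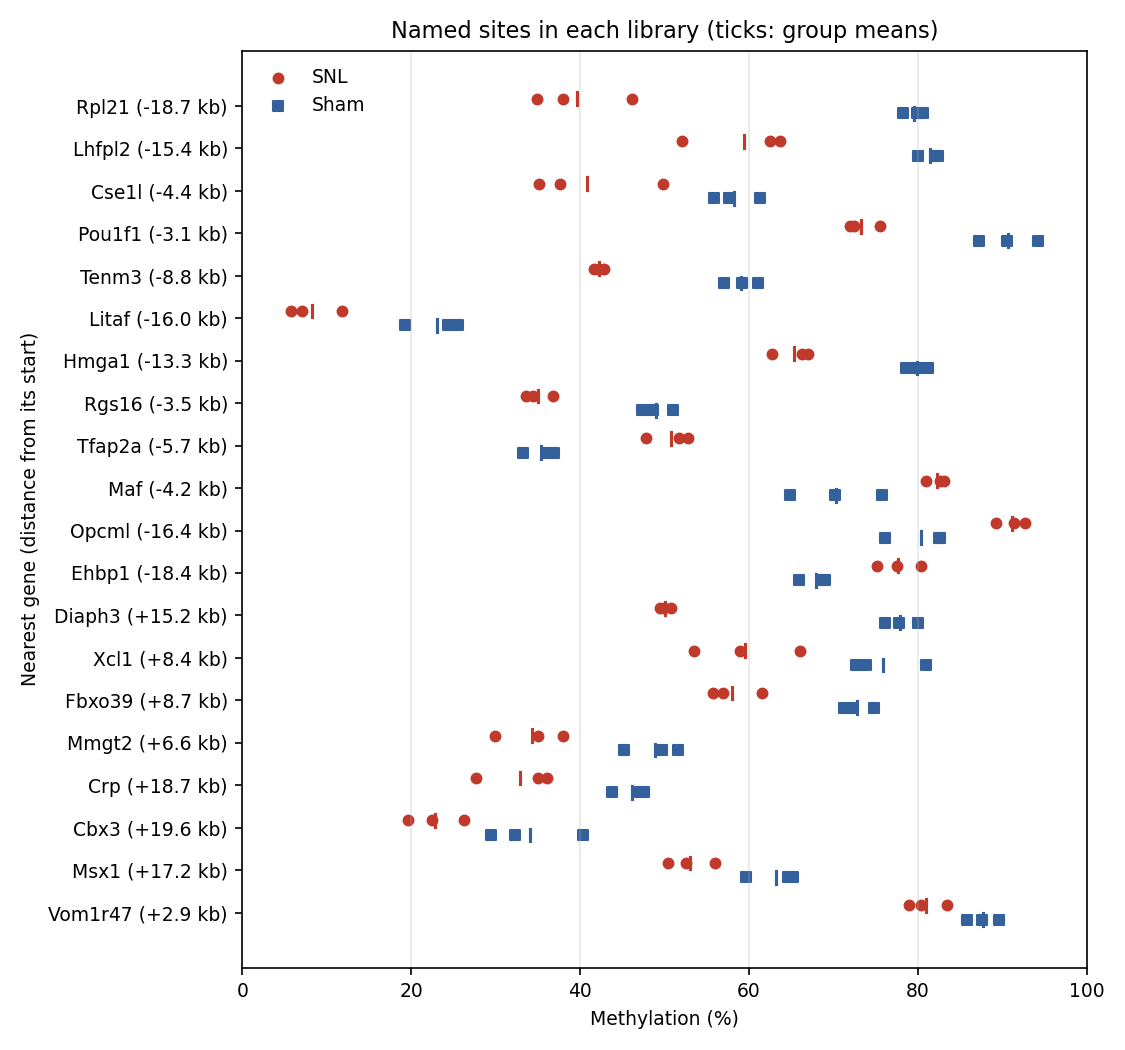
Methylation (%, horizontal axis) in each library at 20 called sites (up to 8 with the largest differences for each side of the start and direction, 1 per gene), named by the nearest gene with the distance from its start (negative is upstream); circles are 3 SNL libraries, squares are 3 Sham libraries and ticks are group means. The groups are separate in each row, and SNL lies to the right of Sham in the rows of Tfap2a, Maf, Opcml and Ehbp1.

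The gains of methylation lay near 4 genes. Tfap2a encodes a transcription factor of the neural crest, the embryonic source of DRG neurons and glia, and 2 sites 17 bp apart lay 5.7 kb upstream of its start (chromosome 17, positions 30011852 and 30011869). The first read 47.8, 51.7 and 52.8% in SNL, against 36.1, 33.2 and 36.8% in Sham (adjusted p = 0.00522). The second read 32.1, 38.4 and 36.8% in SNL, against 19.9, 24.6 and 19.0% in Sham (adjusted p = 0.00763; 0.0653 without Sham 3). All 5 further CpGs read within 500 bp, the nearest of them at 162 bp, were higher in SNL too, by 4.3 to 11.3 points, and none was called at 21 to 49 reads in the shallowest library. At 441 bp, methylation was 28.2, 25.6 and 22.4% in SNL, against 16.2, 13.8 and 12.2% in Sham. Of the 12 other annotated sites assigned to this transcript, 11 were lower in SNL and 0 were called.

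Maf encodes a leucine zipper transcription factor that in mice is needed for touch receptors of the skin, and 2 sites 6 bp apart lay 4.2 kb upstream of its start (chromosome 19, positions 45865658 and 45865664). The second read 83.1, 82.6 and 80.9% in SNL, against 64.8, 75.8 and 70.2% in Sham, at 694 to 908 reads (adjusted p = 0.00337). The first read 73.6, 71.2 and 69.3% in SNL, against 55.4, 68.0 and 61.4% in Sham (adjusted p = 0.0442; 0.183 without Sham 3), and the authors' deposited table gives it a q-value of 0.12. A CpG 25 bp farther was 5.6 points higher with overlapping groups, and 2 CpGs at 133 and 160 bp were 14.0 and 6.7 points higher, none of them called. A site assigned to the same Maf transcript but 349.3 kb downstream of its start moved the other way, at 38.2, 34.7 and 37.2% in SNL, against 47.2, 44.7 and 51.2% in Sham (adjusted p = 0.0135).

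The other gains were single sites. Opcml, an opioid-binding adhesion protein of the neuronal surface, had a site 16.4 kb upstream (chromosome 8, position 27979888) at 89.2, 91.4 and 92.7% in SNL, against 76.1, 82.5 and 82.6% in Sham (adjusted p = 0.0334; 0.166 without Sham 1). Ehbp1, which links endocytic vesicles to actin, had a site 18.4 kb upstream (chromosome 14, position 102969650) at 80.4, 77.5 and 75.2% in SNL, against 65.9, 69.0 and 68.7% in Sham (adjusted p = 0.00859). The Ehbp1 call held in all 6 fits that left out 1 library, the Opcml call in 1 of them. A CpG only 26 bp from the Ehbp1 site, at 537 reads or more, differed by 0.6 points.

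Downstream of the start, the largest loss lay 15.2 kb from that of Diaph3, a formin that builds unbranched actin filaments (chromosome 15, position 68602236). Methylation was 50.8, 49.5 and 49.9% in SNL, against 80, 76.1 and 77.8% in Sham (526 to 837 reads; adjusted p = 9.44e-08), and no other CpG within 500 bp reached 20 reads in all libraries. The next largest lay 8.4 kb from the start of Xcl1, a chemokine of activated T cells, at 66.0, 58.9 and 53.5% in SNL, against 73.9, 81.0 and 72.7% in Sham (adjusted p = 0.0232). The SNL libraries lay within 2 points of each other at Diaph3 and spread over 12 points at Xcl1.

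Msx1, a homeobox factor of limb, tooth and neural crest development, had 2 called sites 20 bp apart and 17.2 kb downstream (chromosome 14, positions 78274551 and 78274571). The first read 56.0, 50.4 and 52.5% in SNL, against 59.6, 64.6 and 65.2% in Sham (469 to 876 reads; adjusted p = 0.0114). Cbx3, a heterochromatin protein that binds methylated histone, had a site 19.6 kb downstream at 26.2, 19.6 and 22.5% in SNL, against 32.3, 29.4 and 40.3% in Sham (adjusted p = 0.0303). Sham 3 stood above the other Sham libraries at this site, and its call was lost without Sham 3 (adjusted p = 0.242).

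The remaining downstream losses were smaller or less stable. Fbxo39, an F-box protein of ubiquitin ligases, fell by 14.7 points and Mmgt2, a membrane protein linked to magnesium transport, by 14.5 points (adjusted p = 0.0144 and 0.0405; the call of Mmgt2 was lost with library offsets, at 0.0548). Crp, the acute-phase C-reactive protein of liver, fell by 13.3 points at 18.7 kb and the pheromone receptor gene Vom1r47 by 6.7 points at 2.9 kb (adjusted p = 0.025 and 0.0186). The site near Mos, a kinase of maturing oocytes, was the tenth downstream call, at 83.9, 82.6 and 78.7% in SNL, against 85.9, 88.9 and 88.2% in Sham. Apart from Diaph3, each downstream call was lost in at least 3 of the 6 fits that left out 1 library.

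Among the other called sites was one 8.8 kb upstream of Mir146a, a microRNA that restrains signalling from innate immune receptors and whose mature sequences are given above (chromosome 10, position 28485231; named after its values were seen). It read 70.4, 69.3 and 67.2% in SNL, against 75.7, 74.6 and 74.3% in Sham, at 700 to 1003 reads (adjusted p = 0.0436, and 0.131 with library offsets). The CpG next to it, 8 bp farther upstream, read 67.4, 64.5 and 65.8% in SNL, against 72.7, 70.4 and 70.8% in Sham and was not called (adjusted p = 0.0749). In all, 54 sites had a microRNA start as the nearest start, near 33 microRNA genes. The Mir146a site at position 28485231 was the 1 that was called, beside 1.42% called among all annotated sites. At the 2 sites 1.0 kb upstream of Mir146b, a microRNA of the same family, methylation was under 7% in each library of both groups.

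**Figure D5:**
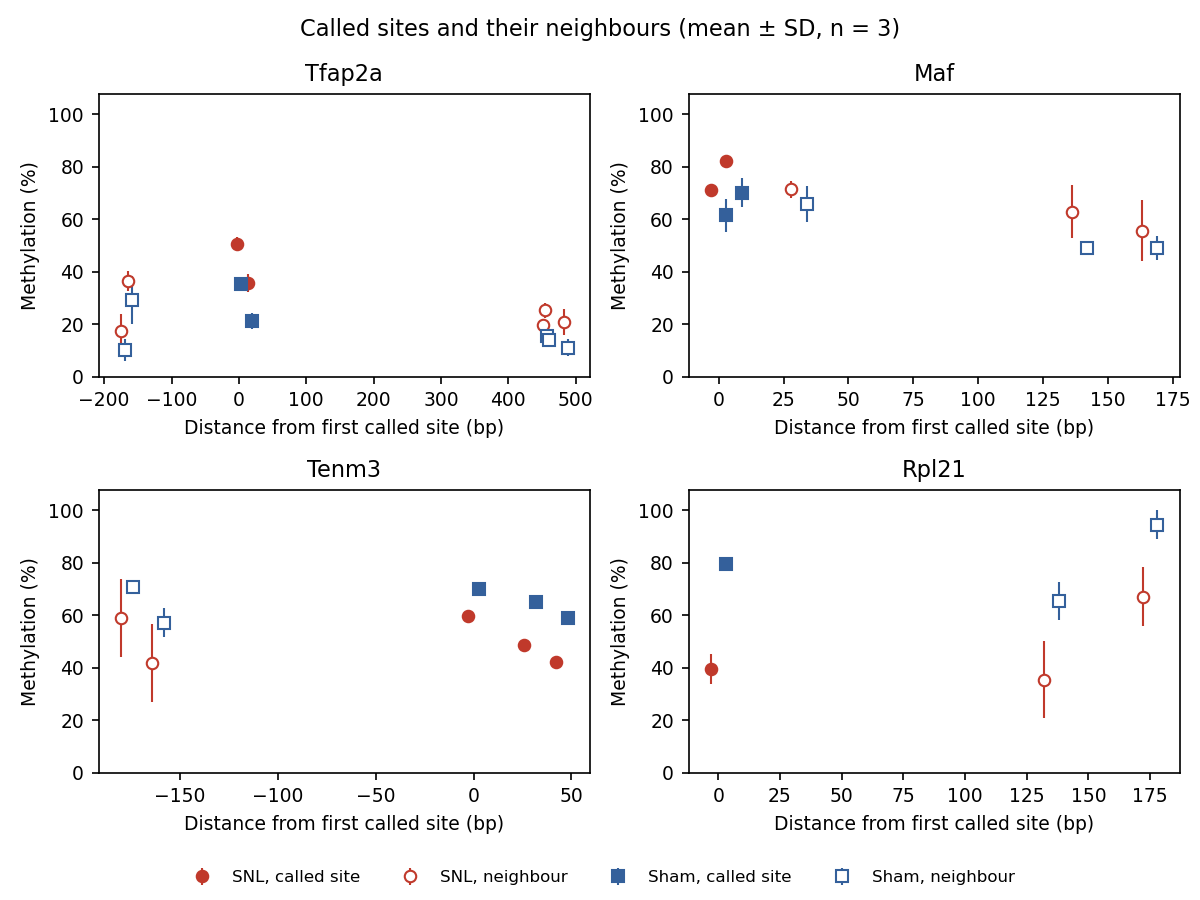
Mean methylation ± SD (%, vertical axis; n = 3 libraries per group) of called sites (filled) and of uncalled neighbours with at least 20 reads in all libraries (open) near 4 genes, against the distance from the first called site (bp, horizontal axis); circles are SNL and squares are Sham, drawn slightly apart. SNL lies above Sham at every CpG near Tfap2a and Maf, and below it at every CpG near Tenm3 and Rpl21.

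CpGs around the changed sites that were not called among the annotated sites were looked for at all 42 stretches, as a description. Some stretches, such as those near Diaph3, Gng13 and Msx1, had none with 20 reads in all libraries. With p adjusted over all sites read at least 20 times, 5 of these 85 neighbours passed 0.05, all losses, near Hnrnpf, Mmgt2, Slc14a1, Fbxo39 and Spag9. Of all annotated sites, 2.47% passed at this adjustment. The neighbours near Hnrnpf, Mmgt2, Fbxo39 and Spag9 lay 12 to 38 bp from the called site and can share its reads. That near Slc14a1 lay 339 bp away. Within 50 bp of a loss, where 1 read can cover both positions, 19 of 19 neighbours at 14 stretches were lower in SNL. Their median was -5.4 points. Farther off, at up to 500 bp, where reads are separate, 43 of 54 neighbours at 23 stretches were lower (79.6%). The median of the 54 was -3.1 points, and 8 of them lay near Or10ak7. Around the gains, 3 of 3 near neighbours and 9 of 9 farther ones were higher in SNL, each set at 3 stretches. Of the 9, 5 lay near Tfap2a. Around the sites that were not called, 59.5% of near and 56.1% of farther neighbours were lower in SNL.

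Whether the promoter of the same transcript was also read could be asked for few of the changed sites. Of the 42 transcripts with a called intergenic site, 3 had annotated promoter sites. Wnk1, a kinase that sets chloride transport, fell at its intergenic site 3.8 kb upstream, which read 26.6, 31.8 and 28.0% in SNL, against 35.0, 38.2 and 34.7% in Sham (adjusted p = 0.0414, and 0.154 with library offsets). Its 3 promoter sites averaged 1.4% ± 0.7 in SNL and 1.6% ± 1.2 in Sham. Likewise the 2 promoter sites of Rgs16 averaged 2.5% ± 0.5 in SNL and 2.0% ± 0.6 in Sham, and 0 of the 7 promoter sites of these 3 transcripts were called (lowest adjusted p = 0.661). Among all annotated sites 1.42% were called, and 0.453% of those under 20%, so the 0 of 7 is not a result about these promoters. The promoter sites of Rgs16 and Wnk1 were thus nearly unmethylated in both groups, while the intergenic sites 3.5 and 3.8 kb upstream of the same starts were at intermediate levels.

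One receptor gene had called sites of both kinds of distance. F2rl2, a protease-activated receptor, had a site 3.5 kb upstream at 9.9, 9.3 and 10.4% in SNL, against 13.3, 14.7 and 16.4% in Sham (adjusted p = 0.0397, and 0.0738 with library offsets). A further site assigned to the same transcript, 24.1 kb downstream and so beyond the 20 kb limit, read 17.8, 17.6 and 17.2% in SNL, against 24.9, 24.95 and 27.6% in Sham (adjusted p = 0.000727). Between them, the 2 sites just inside the limit, downstream of F2rl2, averaged 91.3% ± 2.1 and 92.1% ± 3.4 in SNL and 90.2% ± 1.1 and 91.9% ± 2.3 in Sham. The site just inside the limit upstream of Clec2d averaged 85.5% ± 1.0 in SNL and 87.8% ± 2.8 in Sham. Just outside it, 2 sites of Pcsk6 averaged 81.9% ± 1.2 and 79.1% ± 0.8 in SNL and 85.8% ± 1.2 and 79.4% ± 2.4 in Sham, and 1 of Agtpbp1 averaged 78.2% ± 2.5 in SNL and 84.8% ± 2.5 in Sham.

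Genes grouped by function were then described by counts. Lists of genes known from ganglia and nerve injury covered 180 of the 3739 sites. The share called was 1.44% of the 3739 sites and 1.42% of all annotated sites, and no list was tested against it. Among 17 sites near 9 genes of sensory neuron identity, 2 were called, both the gains near Maf, which lie 6 bp apart. The median difference of the 17 was 0.32 points, beside -0.62 over all 3739 sites and -0.55 over all annotated sites. Among 68 sites near 29 developmental transcription factors, 4 were called, and the median difference of the 68 was 0.34 points. The 4 were close pairs, the 2 gains near Tfap2a 17 bp apart and the 2 losses near Msx1 20 bp apart. Among 15 sites near 6 genes of the DNA methylation machinery, 1 was called, 1.1 kb upstream of Dnmt3l, the cofactor of the germline methyltransferases. That site read 73.0, 67.8 and 69.1% in SNL, against 75.3, 75.4 and 76.4% in Sham (adjusted p = 0.0423, and 0.103 with library offsets).

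The other 7 lists, of 4 to 27 sites each, held 0 called sites, beside 1.42% called among all annotated sites. At that share, lists of this size can hold 0 calls, so the 0 is not a result about these genes. Of the 27 sites near 12 ion channel genes, the lowest p was at a site 16.0 kb upstream of Kcnq3, a subunit of the potassium channel that damps repetitive firing, with 72.5, 73.4 and 72.3% in SNL, against 81.7, 79.6 and 79.9% in Sham. The groups were over 6 points apart and the site missed the threshold (adjusted p = 0.0648). A site 8.6 kb upstream of Trpv2, a cation channel of large sensory neurons, averaged 70.4% ± 1.7 in SNL and 79.1% ± 5.5 in Sham (adjusted p = 0.155). Near P2rx4, an ATP-gated channel, methylation averaged 31.7% ± 0.7 in SNL and 26.7% ± 3.0 in Sham (adjusted p = 0.369).

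Sites near genes of other cells and of injury were few. There were 14 sites near 10 genes of axon injury and regeneration. Of the 14, 71.4% were lower in SNL, beside 61.8% of all 3739 sites. A site near Socs3, an inhibitor of cytokine signalling, averaged 91.8% ± 2.4 in SNL and 85.8% ± 4.3 in Sham with overlapping libraries. Sites near Lif and Vip went the other way, each with a difference of -4.2 points (adjusted p = 0.455 and 0.505). There were 11 near 7 Schwann cell and myelin genes, of which 45.5% were lower in SNL. A site 3.1 kb upstream of Nrg1, an axonal signal for myelination, averaged 50.6% ± 4.3 in SNL and 41.3% ± 5.0 in Sham (adjusted p = 0.278). A site near Egr2 went the other way, at 87.0% ± 1.7 in SNL and 92.7% ± 3.1 in Sham (adjusted p = 0.367). So did 1 near Gjb1, at 48.9% ± 0.5 in SNL and 57.1% ± 5.2 in Sham (adjusted p = 0.417). Near satellite glia genes there were 9 sites, near immune genes 8, near vascular and fibroblast genes 4 and near transmitter receptor genes 13. In these, the lowest adjusted p of each list was 0.304 (Ptn), 0.596 (Il10), 0.495 (Pecam1) and 0.462 (Adra2c). A p above the threshold at these depths does not show that a site was equal in the groups.

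On chromosome X, 32 sites averaged 71.2, 70.7 and 70.0% in SNL, against 73.1, 73.3 and 73.2% in Sham. The 3 SNL libraries lay below the 3 Sham libraries, which gives the smallest p that 3 against 3 allow (exact two-sided permutation p = 0.1). Of the 32, 2 were called, beside 1.42% of all annotated sites (1.24% lower and 0.181% higher). Both were losses: one 16.4 kb upstream of Pbdc1 fell by 13.6 points and one 5.9 kb upstream of Fndc3c1 fell by 9.9 points (adjusted p = 0.0171 and 0.0214). With so few calls, their direction is not a result about chromosome X.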

How the data were processed

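RRBS data from 6 rat DRG libraries (SNL, n = 3; Sham, n = 3) were used. Per the submitters' processing notes, alignment was by Bismark 0.18.1 (Bowtie2) and methylation analysis by methylKit 1.3.3. The notes give rn4 as the assembly, whereas a human one is named in the labels' protocols. For each cytosine the deposited library files give a coverage count and a percent of C reads, per the file headers. The authors' deposited table adds their p-value, q-value and difference score in points, the annotation flags coded 0 or 1, and the signed distance to the nearest start. Reads with C were recovered as coverage times percent. All annotated sites have 100 or more reads in each library.

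Each site was fitted by logistic regression on group. Overdispersion (Pearson, 4 residual degrees of freedom) was moderated with limma 3.58.1 (R 4.3.3), with a floor of 1. F-test p-values (two-sided) were adjusted over the 32674 sites by the Benjamini-Hochberg method. Sites below a read length apart can share reads. Means were compared by exact permutation over 20 arrangements. The test was run on data simulated from its own spread estimates. Such data cannot decide between it and the other tests used. Names came from a RefSeq gene table matched by accession. Sites were named as the 8 largest non-overlapping calls per side and direction, 1 per gene, all clusters within 1000 bp, the 3 lowest p per list and 3 sites either side of the 20 kb limit. The members, lists and tests were chosen with earlier results of these data known. Figures used Python 3.11.15 and matplotlib 3.10.9. A few named sites are left out of the text but stay in every count.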

Additional observations from a re-analysis of the deposited data

How the results depend on the processing

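Of the 54 calls (44 upstream, 10 downstream; 48 lower, 6 higher), an F test with unmoderated overdispersion gave 0 in every one of these counts and so did limma on logit values, although 210 and 355 of the 3739 sites, against 481 in the moderated logistic test, had an unadjusted p under 0.05. A coverage minimum of 200 reads gave 27 calls (22 upstream, 5 downstream, 23 lower), beside 1.77% of all annotated sites tested at that depth. The authors' deposited q-value under 0.05 gave 159 (135 upstream, 24 downstream, 142 lower, 17 higher). With library offsets 29 were lower and 16 higher. Adjusting over all sites with 20 or more reads gave 19 downstream and 14 higher calls. A limit of 10 kb gave 34 (4 downstream, 30 lower). A prior taken from sites at 5 to 95%, an alternative chosen after seeing the data, gave 34 (27 upstream, 30 lower; 0.888% of all annotated sites), and counting 1 call per 1000 bp stretch, chosen likewise, gave 42. Leaving out 1 library gave 16 to 58 calls, 15 to 45 upstream, 1 to 13 downstream, 13 to 52 lower and 3 to 9 higher, beside 0.395 to 1.6% of all annotated sites.

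The differences in mean methylation kept their sign in every alternative, with -0.66 to -1.46 points for all the sites when 1 library was left out. Contrasts between classes were near 0 and changed sign: upstream minus downstream was 0.0076 at 200 reads, the sites minus other intergenic sites was -0.29 with reads pooled over sites and -0.047 to 0.15 when 1 library was left out (-0.047 without Sham 3), and the sites minus all others was 0.016 with 1 site per 1000 bp window; the cause was not tested. The uncalled named sites of Rgs5 and Tnfrsf1b also changed sign: with 1 library left out, the adjusted p of Rgs5 was 0.309 to 0.996 (0.996 without SNL 2 and 0.973 without SNL 3, where the sign turned) and that of Tnfrsf1b 0.529 to 0.998 (0.998 without SNL 3 and 0.959 without Sham 2).

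With the replicate number as a block, 41 sites were called, 40 of them among the 54, beside 1.04% of all annotated sites. Of the 41, 32 were upstream and 9 downstream, and 36 were lower and 5 higher. The block cannot alter a difference in means, because both groups hold every replicate number. It was therefore no check on the size of the 6 differences in means. The deviations of same-numbered libraries from their group means correlated at -0.055, 0.256 and -0.135, so the numbers were not taken to pair the libraries. SNL 2 correlated best with Sham 2 (0.256), SNL 3 with Sham 1 (0.341) and SNL 1 with Sham 3 (0.07). Of the 35 called named sites, 27 kept the call with library offsets and 28 with the block.

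Depth limits the neighbour readings, since CpGs beyond 50 bp of a loss had a median lowest coverage of 32 reads. With 3 libraries a group no mean can reach an exact p under 0.1.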

Other observations

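Sites near microRNA genes, other than that of Mir146a, were not called, where 1.42% of all annotated sites were. Levels near microRNA genes differed widely. Mir124-1, a microRNA of neurons, had a site 5.9 kb upstream that averaged 10.7% ± 4.4 in SNL and 14.2% ± 1.1 in Sham, and a site 4.6 kb past its start that averaged 62.2% ± 3.3 in SNL and 56.8% ± 1.8 in Sham (adjusted p = 0.716 and 0.509). Mir202, a microRNA of the gonads, had a site 6.3 kb downstream at 53.1, 59.9 and 52.4% in SNL, against 66.1, 64.5 and 65.6% in Sham (adjusted p = 0.265). The 3 sites about 3 kb upstream of Mir130a and the site 3.1 kb downstream of Mir196a, which lies among the Hox genes, stood under 7% in each library.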
